A study of Mus musculus with 6 samples.

Results

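Cadherins and protocadherins are cell surface proteins built from repeated extracellular domains that bind calcium, and most of them hold like cells together. Their genes were examined in primary vascular smooth muscle cells of the mouse aorta, which form the contractile layer of the vessel wall. A gene was counted as a member when its symbol began with Cdh and a digit or with Pcdh. Cdh5 and Cdh19, which mark endothelial and Schwann cells, were left out and are given with the markers of those cells. The rule found 90 of the 27179 genes in the table: 33 genes that stand alone (21 cadherins and 12 protocadherins) and 57 genes of the 3 protocadherin clusters.

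Polyadenylated RNA was sequenced from 3 libraries labelled Bmal1 KO and 3 labelled WT. Bmal1, whose gene symbol is Arntl, is a transcription factor of the circadian clock. Cells of both groups were grown at 37 °C and 10% CO2 in DMEM, a standard culture medium, that held 10% fetal bovine serum. Both groups were then kept for 7 days in what the labels call diabetic medium, which held 0.3 mM hydrogen peroxide and 4.5 g/L glucose. There was thus no library without that medium, and the time of day of sampling is not given in the labels. The labels place all libraries in 1 batch and do not say how the deletion was made, in which cells it was driven, or whether replicates came from separate cultures or animals. P-values therefore measure the spread between these libraries, which may be technical.

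Classical cadherins link neighbouring cells and bind catenins inside the cell. Beta-catenin or plakoglobin ties the cadherin tail to alpha-catenin and actin, while p120 catenin holds the cadherin at the membrane. Type I classical cadherins include E-, N- and P-cadherin, and N-cadherin is the main one of vascular smooth muscle. Protocadherins lack this catenin site. In the clusters each gene has its own first exon and promoter, and the alpha and gamma genes splice that exon to 3 constant exons of their cluster. All values are normalized read counts per library, and log2 fold changes are libraries labelled Bmal1 KO minus WT.

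The libraries held 32503525 to 38074293 reads in the group labelled Bmal1 KO and 39129037 to 44657471 reads in WT. Arntl transcript was present in both groups, with 1036, 941 and 1036 in the libraries labelled Bmal1 KO, against 529, 619 and 590.4 in WT. It was higher, not lower, under the Bmal1 KO label (log2 fold change 0.79, SE 0.09, limma adjusted p = 0.000135). The counts do not show which part of a gene the reads covered, and the groups are therefore called by their labels. The groups also differed in sex-linked transcripts. Xist, made from the inactive X chromosome of females, had 3887, 3874 and 3842 in the libraries labelled Bmal1 KO, against 89.9, 12.4 and 73.7 in WT. Ddx3y, a gene of the Y chromosome, had 82.5, 80.3 and 68.5 in the libraries labelled Bmal1 KO, against 3314, 2784 and 3229.9 in WT. Sex and genotype cannot be told apart here. Smooth muscle markers were present in every library. In the group labelled Bmal1 KO 6 of 6 were higher, against 36.2% of all tested genes. Their summed counts were 99811 to 108137 in that group and 28537 to 32638 in WT. Acta2 and Tagln carried most of these sums. Myh11, the smooth muscle myosin of contractile cells, was low in WT, with 259, 272 and 291 in the libraries labelled Bmal1 KO, against 24.8, 14.9 and 68.2 in WT.

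Of the 90 members, 76 reached 10 normalized counts in at least 3 libraries and were tested. The libraries labelled Bmal1 KO were higher than WT for 38 of them, 17 were lower and 21 did not pass an adjusted p of 0.05 (limma). In the same test over all 16086 tested genes, 36.2% were higher and 34.9% were lower, 71.1% in all. With edgeR on recovered reads 54 members were called, and 71.4% of all tested genes. The filter favoured rises, because 17 members passed it through the libraries labelled Bmal1 KO only, which had to differ in that direction and were all called higher, while 0 passed through WT libraries only. Among the 57 members at 10 or more in all 6 libraries, 21 were higher, 17 lower and 19 not past the threshold, with a median log2 fold change of 0.03. All 13999 genes with that level were called higher in 33.0% and lower in 37.2% of cases, 70.2% in all. The libraries of the 2 groups did not overlap for 57 tested members, 39 with the libraries labelled Bmal1 KO above and 18 with them below. Over all tested genes such separation was found above for 38.5% and below for 38.2%, or 76.7% in all. No member was without reads in every library.

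Type I classical cadherins moved in different directions. Cdh2, which encodes N-cadherin, is at chr18:16588877-16809246 (mm10). It had 13808, 14038 and 13321 in the libraries labelled Bmal1 KO, against 4909, 6132 and 5892 in WT. The groups did not overlap, and Cdh2 was 2.43-fold higher in the libraries labelled Bmal1 KO (log2 fold change 1.29, SE 0.09, limma adjusted p = 9.29e-06). Cdh3, which encodes P-cadherin of basal epithelium, lies at chr8:106510852-106556911. Its counts were 203, 231 and 219 in the libraries labelled Bmal1 KO, against 886, 1122 and 973 in WT, so it was 4.56-fold lower with no overlap (log2 fold change -2.18, SE 0.12, limma adjusted p = 2.42e-06). Its neighbour Cdh1, at chr8:106603350-106670247, encodes E-cadherin of epithelial junctions. Cdh1 had 211, 179 and 241 in the libraries labelled Bmal1 KO and 139, 143 and 208 in the WT libraries. The groups overlapped, and the difference did not pass (log2 fold change 0.38, limma adjusted p = 0.127; 95% interval -0.09 to 0.84). Without WT replicate 3 it did, at a log2 fold change of 0.56 (limma adjusted p = 0.0321). Cdh4, which encodes R-cadherin, first described in retina, was 3.78-fold higher (log2 fold change 2.06, limma adjusted p = 0.00356). Cdh15, the M-cadherin of skeletal muscle, was too low to test, with 21 reads over the libraries labelled Bmal1 KO and 6 over WT. Per library size that is a ratio of 4.40, with an exact 95% counting interval of 1.72 to 13.3. As a ratio of mean normalized counts Cdh15 was 4.60-fold higher with all libraries and 8.58-fold higher without WT replicate 2.

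Type II cadherins are the class with a different adhesive sequence that includes many genes of the nervous system. Among these 11, 10 were higher and 1 did not pass, against 36.2% higher and 34.9% lower over all tested genes. Of the 11, 8 passed the filter through the libraries labelled Bmal1 KO only. The 3 at 10 or more in all 6 libraries had 2 higher and 1 not past the threshold. Cdh11, a cadherin of mesenchymal cells at chr8:102632095-102785493, had the highest counts of the 11. Its counts were 11503, 11872 and 11346 in the libraries labelled Bmal1 KO, against 4127, 4769.8 and 4683 in WT. It was 2.56-fold higher with no overlap (log2 fold change 1.36, SE 0.07, limma adjusted p = 2.13e-06), close to the fold of Cdh2. Cdh6, the K-cadherin first described in kidney, had 138, 92.3 and 149 in the libraries labelled Bmal1 KO, against 5.503, 4.98 and 16.6 in WT. It was 13.99-fold higher (log2 fold change 3.82, SE 0.45, limma adjusted p = 0.000161), and 24.1-fold higher without WT replicate 3. Cdh18 had 94.8, 143 and 131 in the libraries labelled Bmal1 KO, against 7.34, 4.98 and 11.1 in WT, 15.8-fold higher (log2 fold change 3.86, SE 0.34, limma adjusted p = 3.21e-05). For both genes every library labelled Bmal1 KO stood above every WT library, and the WT counts were close to or below the filter.

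Cdh22, known from brain and pituitary, had 329, 290.2 and 238 in the libraries labelled Bmal1 KO, against 49.5, 40.6 and 72.8 in WT, and the groups were 5.26-fold apart with no overlap (log2 fold change 2.40, SE 0.24, limma adjusted p = 7.09e-05). Cdh24 was the type II gene that did not pass. Its counts were 157, 141 and 63.97 in the libraries labelled Bmal1 KO, against 122, 108 and 132 in WT. The groups overlapped, with a wider spread in the libraries labelled Bmal1 KO (log2 fold change -0.09, limma adjusted p = 0.809; 95% interval -0.86 to 0.67). Leaving out replicate 3 of the libraries labelled Bmal1 KO turned the sign, to 0.31, again without passing (limma adjusted p = 0.176). Log2 fold changes of the remaining type II genes ran from 1.64 for Cdh12 to 3.13 for Cdh10. Cdh12 lost its call without replicate 1 of the libraries labelled Bmal1 KO (limma adjusted p = 0.0649). Cdh20 (3.49-fold) lost its call without that library (0.0512) and without replicate 2 of the same group (0.0706), and its fold was 5.45 without WT replicate 3. The fold of Cdh7 was 6.81 with all libraries and 10.4 without WT replicate 3.

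**Figure D1:**
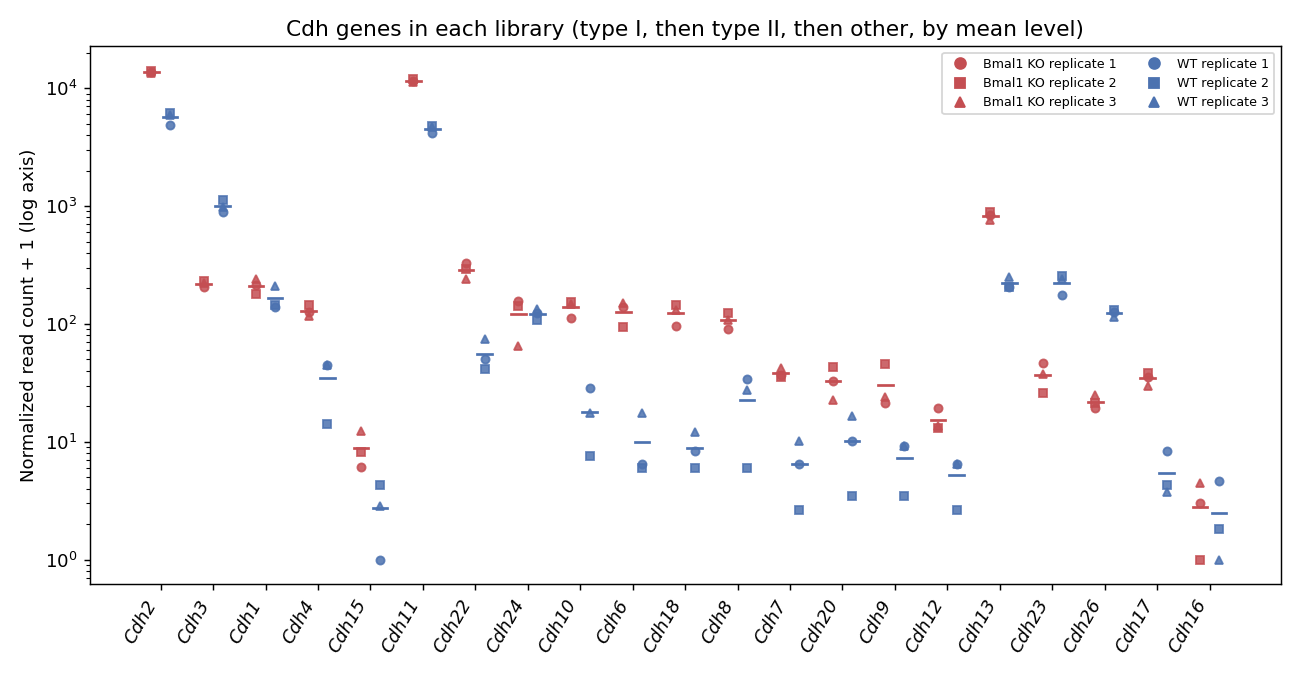
Normalized read counts, plus 1, of the Cdh members by library on a log axis, with the libraries labelled Bmal1 KO to the left of WT for each gene; each point is 1 library and each line a group mean. Cdh2 and Cdh11 sit between 11346 and 14038 in the libraries labelled Bmal1 KO and between 4127 and 6132 in WT, while Cdh3, Cdh23 and Cdh26 lie lower in the libraries labelled Bmal1 KO.

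Cadherins outside both classical types were split. Cdh13 encodes T-cadherin, which has a lipid anchor in place of a tail and binds adiponectin and low-density lipoprotein. It had 838, 891 and 757 in the libraries labelled Bmal1 KO, against 206, 206 and 249.6 in WT. That was 3.76-fold higher with no overlap (log2 fold change 1.91, SE 0.12, limma adjusted p = 5.44e-06). Cdh23, part of the tip link of inner ear hair cells, had 45.9, 25.2 and 36.6 in the libraries labelled Bmal1 KO, against 175, 253 and 239 in WT, which was 6.205-fold lower with no overlap (log2 fold change -2.62, SE 0.27, limma adjusted p = 6.85e-05). Pcdh15, its partner in the tip link, did not differ past the threshold (log2 fold change -0.04, limma adjusted p = 0.882; 95% interval -0.64 to 0.55). Cdh26, described in human epithelium, had 18.3, 20.4 and 23.99 in the libraries labelled Bmal1 KO, against 125, 130.2 and 114 in WT. It was 5.89-fold lower with no overlap (log2 fold change -2.51, SE 0.21, limma adjusted p = 2.73e-05). Cdh17, the liver and intestine cadherin, was 7.48-fold higher (log2 fold change 2.74, limma adjusted p = 0.000598) from low counts. It passed the filter through the libraries labelled Bmal1 KO only. Cdh16, a kidney cadherin, had 5 reads over each group's 3 libraries and was not tested.

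Markers of other cell types moved in the same libraries, and their part in these results was not tested. In bulk RNA, more cells of a type and more RNA per cell cannot be told apart. Neuronal markers (6 genes, none at 0 in any library) were higher in 6 of 6 cases, against 36.2% of all tested genes. Their summed counts were 10756 to 14895 in the libraries labelled Bmal1 KO and 1648 to 3491 in WT. Schwann cell markers summed to 725 to 1333 and 134 to 377 in the same order of groups, with 3 of 6 higher and 3 too low to test. Foxd3 was at 0 in WT replicate 2, and Cdh19 had 5.095, 16.8 and 15.99 in the libraries labelled Bmal1 KO, against 1.83, 1.66 and 9.21 in WT. Endothelial markers, none at 0, were higher in 7 of 8 cases, against 36.2% of all tested genes. Of these 8, 5 passed the filter through the libraries labelled Bmal1 KO only, as did 1 Schwann marker. Of the 3 endothelial markers at 10 or more in all 6 libraries, 2 were higher and 1 did not pass. Endothelial sums were 889.6 to 1178 in the libraries labelled Bmal1 KO and 333 to 476 in WT. Cdh5 itself had 82.5, 52.8 and 112 in the libraries labelled Bmal1 KO, against 12.8, 4.15 and 30.4 in WT. Epithelial and mesothelial markers, none at 0, went both ways, 4 higher and 4 lower of 8. Their sums were 6719 to 10627 and 3735 to 4966 in the same order of groups. Msln had the largest difference in counts, with a mean of 4525 in the libraries labelled Bmal1 KO and 356 in WT. The 4 lower ones were Krt19, Wt1, Lrrn4 and Upk3b. Among these 8 markers, 1 passed the filter through the libraries labelled Bmal1 KO only and 2 through WT libraries only. WT replicate 2 was the lowest WT library for 6 of 6 neuronal markers, 6 of 8 endothelial markers and 4 of 6 Schwann markers. The same held for 4 of 6 macrophage, 4 of 6 fibroblast, 3 of 8 epithelial and mesothelial and 1 of 6 smooth muscle markers. WT replicate 2 was also the lowest WT library for 15 of the 21 stand-alone members called higher under the Bmal1 KO label. Among the other 9 that were tested, it was lowest for 2. How often it was lowest over all tested genes was not examined.

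Promoter sequence is shown for 3 stand-alone members with large changes, Cdh18, Cdh6 and Cdh26, and for the 1 member whose window held CACGTG, the letters to which CLOCK and BMAL1 bind. Windows are the 250 bases before an annotated start in RefSeq (GRCm38.p6, the mm10 assembly), 5′ to 3′ on the gene's strand, with every CANNTG in capitals. For Cdh6 and Cdh18 that start lies inside the gene's annotated span. In a second annotation, GENCODE, the bases just after the start were found in a transcript of Cdh18 and of Cdh6. For Cdh26 and Cdh15 they were not found, so those starts rest on RefSeq alone.
Cdh18 (chr15:23036213-23036462, plus strand): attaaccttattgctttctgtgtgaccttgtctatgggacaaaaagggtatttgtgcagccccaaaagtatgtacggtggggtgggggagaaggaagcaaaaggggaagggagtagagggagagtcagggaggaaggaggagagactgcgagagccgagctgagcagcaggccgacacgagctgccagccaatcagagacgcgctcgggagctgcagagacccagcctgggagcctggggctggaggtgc
Cdh6 (chr15:13173676-13173925, minus strand): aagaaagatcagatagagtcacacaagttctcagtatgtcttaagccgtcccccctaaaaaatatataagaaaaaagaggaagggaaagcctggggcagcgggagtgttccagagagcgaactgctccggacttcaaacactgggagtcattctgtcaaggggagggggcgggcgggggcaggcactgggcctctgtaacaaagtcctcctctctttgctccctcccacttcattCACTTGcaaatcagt
Cdh26 (chr2:178430265-178430514, plus strand): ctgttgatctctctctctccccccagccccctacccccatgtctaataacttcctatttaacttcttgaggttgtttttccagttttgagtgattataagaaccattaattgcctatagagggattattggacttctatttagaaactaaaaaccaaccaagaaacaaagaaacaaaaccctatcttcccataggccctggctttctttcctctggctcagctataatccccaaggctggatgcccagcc
Cdh15 (chr8:122848124-122848373, plus strand): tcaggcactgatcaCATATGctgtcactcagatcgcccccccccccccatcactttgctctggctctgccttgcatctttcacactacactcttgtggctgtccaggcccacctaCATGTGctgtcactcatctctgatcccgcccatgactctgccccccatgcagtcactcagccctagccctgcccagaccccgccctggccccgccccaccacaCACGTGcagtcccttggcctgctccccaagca
The Cdh18 and Cdh26 windows held 0 such sites, the Cdh6 window 1 and the Cdh15 window 3. A RefSeq promoter was matched for 22 of the 90 members, all of them stand-alone. None was matched for any cluster gene, nor for Cdh1, Cdh2, Cdh3, Cdh4, Cdh11, Cdh13, Cdh16, Cdh17, Pcdh1, Pcdh11x or Pcdh12. CACGTG, which reads the same on both strands, was in 1 of these 22 (4.55%), against 6.86% of 27025 genes with a window of the same length. CACCTG on either strand, to which SNAI and ZEB proteins bind, was in 2 of 22 (9.09%), Cdh7 and Pcdh15, against 19.4% of genes. The wider CANNTG, which covers both of these motifs, was in 12 of 22 (54.5%), against 69.3% of genes. A match is only a match of letters, and a window without one says nothing of the rest of the gene.

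Stand-alone protocadherins were mostly higher. In the delta-1 group, whose members have long extracellular parts, 3 of 4 were higher and 1 did not pass. The share over all tested genes was 36.2% higher and 34.9% lower. Among the 4 delta-1 genes, Pcdh11x passed the filter through the libraries labelled Bmal1 KO only. Pcdh9, at chr14:93013700-93892834, had 1822, 1867 and 1841 in the libraries labelled Bmal1 KO, against 378, 398 and 464 in WT. It was 4.46-fold higher (log2 fold change 2.16, SE 0.09, limma adjusted p = 7.29e-07), and the gap was far wider than the spread in either group. Pcdh11x, an X-linked gene at chrX:120290238-120910622, had 431, 402 and 408 in the libraries labelled Bmal1 KO, against 9.17, 4.15 and 14.7 in WT. Its 44.2-fold difference was the largest fold of any tested member (log2 fold change 5.47, SE 0.38, limma adjusted p = 9.86e-06). Pcdh1, known from airway epithelium, had 815, 778 and 721 in the libraries labelled Bmal1 KO, against 269, 352 and 319.6 in WT, 2.46-fold higher with no overlap (log2 fold change 1.30, SE 0.12, limma adjusted p = 4.38e-05). Pcdh7, the most abundant single protocadherin, had 6956, 7354 and 6829 in the libraries labelled Bmal1 KO and 6369, 8412 and 7920.4 in the WT libraries. Its groups overlapped (log2 fold change -0.09, limma adjusted p = 0.44; 95% interval -0.33 to 0.15). Without WT replicate 1, Pcdh7 was lower in the libraries labelled Bmal1 KO (log2 fold change -0.21, limma adjusted p = 0.00945). Exons of Pcdh7 overlap a transcript of the opposite strand over 2235 bases, and the strand setting used for counting is not given in the sources used here.

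In the delta-2 group, 4 of 5 were higher and 1 was lower, against 36.2% higher and 34.9% lower over all tested genes. Among these 5, Pcdh8 passed the filter through the libraries labelled Bmal1 KO only. Pcdh19, an X-linked gene at chrX:133582860-133689044 that is linked to a form of epilepsy in humans, had 2596, 2783 and 2761 in the libraries labelled Bmal1 KO, against 647, 671 and 662 in WT. It was 4.11-fold higher (log2 fold change 2.04, SE 0.06, limma adjusted p = 1.62e-07). Pcdh10, at chr3:45378398-45434579, had 846, 910.02 and 732 in the libraries labelled Bmal1 KO, against 107, 44.8 and 134 in WT. That 8.71-fold difference again left the groups apart (log2 fold change 3.24, SE 0.36, limma adjusted p = 0.000119). Pcdh17 had 192, 234 and 159 in the libraries labelled Bmal1 KO, against 53.2, 11.6 and 57.1 in WT. It was 4.79-fold higher with no overlap (log2 fold change 2.50, SE 0.55, limma adjusted p = 0.00418). Pcdh8, also called arcadlin and known from synapses, had 198, 205 and 159 in the libraries labelled Bmal1 KO, against 22.9, 5.805 and 52.5 in WT. Its fold was 6.91 (log2 fold change 3.18, SE 0.65, limma adjusted p = 0.00287) and 13.0 without WT replicate 3, since that library held most of the WT reads. The groups did not overlap, and in both Pcdh8 and Pcdh17 the lowest library was WT replicate 2. Exons of Pcdh8, Pcdh10 and Pcdh19 overlap opposite-strand transcripts over 436, 154 and 57 bases. Pcdh18 went the other way, with 362, 324 and 337 in the libraries labelled Bmal1 KO, against 475, 476 and 514 in WT. It was 1.43-fold lower with no overlap (log2 fold change -0.52, SE 0.10, limma adjusted p = 0.00189).

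Both X-linked members, Pcdh11x and Pcdh19, were higher. Of the other 518 tested X-linked genes, 49.4% were higher, with a median log2 fold change of 0.29, against 36.2% of autosomal genes and a median of -0.02. The part of sex in the values of these 2 genes was not tested. Of the remaining stand-alone protocadherins, Pcdh20 had a log2 fold change of 0.87 that missed the threshold (limma adjusted p = 0.0537; 95% interval 0.06 to 1.67). Pcdh20 passed without WT replicate 3, at 0.0302, with upper-quartile scaling, at 0.0458, and with a pseudocount of 5, at 0.0432. Pcdh12, found in endothelium, averaged 9.52 ± 2.54 in the libraries labelled Bmal1 KO and 5.92 ± 1.39 in WT (SD, n = 3 each) and was not tested.

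**Figure D2:**
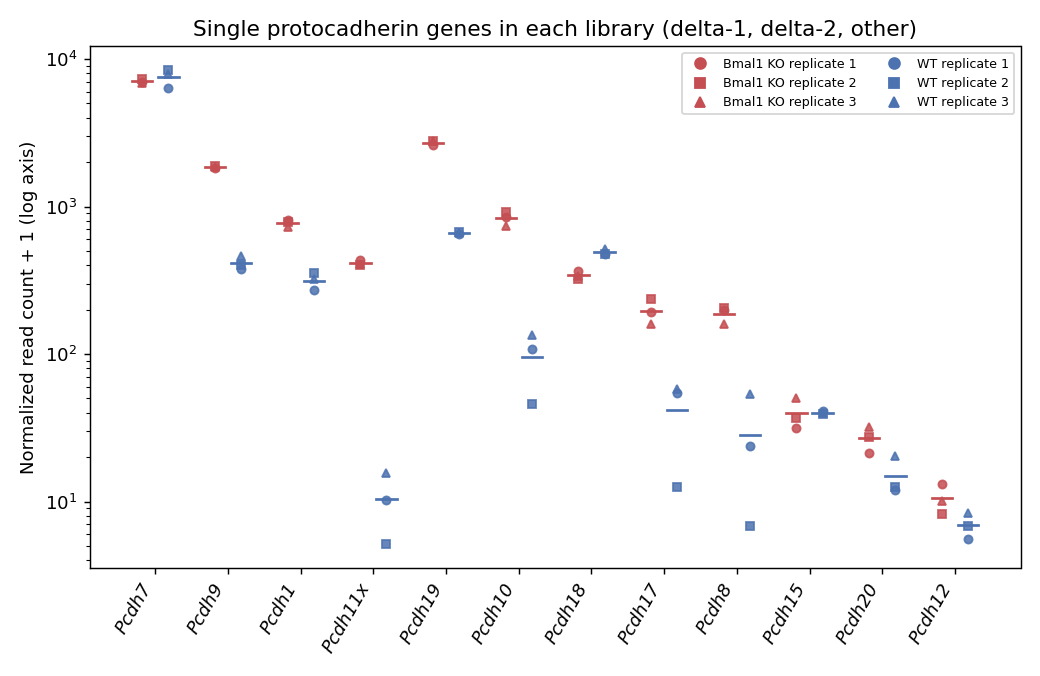
Normalized read counts, plus 1, of the stand-alone protocadherins by library on a log axis, with the libraries labelled Bmal1 KO to the left of WT for each gene; each point is 1 library and each line a group mean. Pcdh11x lies at 402 to 431 in the libraries labelled Bmal1 KO and 4.15 to 14.7 in WT, Pcdh7 overlaps between groups, and Pcdh18 is lower in the libraries labelled Bmal1 KO.

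Levels can be ordered between genes only per length, here as normalized counts per kilobase of annotated exon. In the libraries labelled Bmal1 KO, Cdh2 had 1651 to 1740 per kilobase, Cdh11 had 1274 to 1333 and Pcdh7 had 644 to 694, with no overlap between these 3. In WT the same genes had 608 to 760.3, 464 to 536 and 601 to 793 per kilobase. Cdh2 and Pcdh7 thus overlapped at the top in WT, with Cdh11 below both. Next among the stand-alone members in the libraries labelled Bmal1 KO came Pcdh9, at 269 to 275 per kilobase. Pcdh19 followed at 248 to 266 per kilobase, with no overlap between these ranges. In WT the next was Cdh3, at 202 to 256 per kilobase, against 46.3 to 52.8 in the libraries labelled Bmal1 KO. Pcdh18 followed in WT at 88.5 to 95.8 per kilobase, against 60.3 to 67.4 in the libraries labelled Bmal1 KO. Pcdh9 and Pcdh19 came after it in WT, at 55.7 to 68.4 and 61.9 to 64.1 per kilobase, and overlapped there. Exon length sums all annotated exons of a gene, so these levels depend on which transcripts are made.

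The 3 protocadherin clusters lie side by side on chromosome 18 and moved differently. Reads of neighbouring genes in a cluster can be confused, because constant exons are shared and the first exons are near copies, so values of single cluster genes are uncertain. Summed counts of the 14 alpha genes were 528, 482 and 407 in the libraries labelled Bmal1 KO, against 70.6, 54.7 and 111 in WT, 5.98-fold higher. For the 22 beta genes the sums were 1912, 1927 and 1867 in the libraries labelled Bmal1 KO, against 3315, 3819 and 3841 in WT, 1.92-fold lower. The 21 gamma genes summed to 11716, 12908 and 11574 in the libraries labelled Bmal1 KO, against 13342, 21311 and 18799 in WT. The gamma sums did not overlap, although WT replicate 1 stood well below the other WT libraries. Without Pcdhgc3, its gene with the highest counts, the gamma cluster summed to 4079, 4594 and 3964 in the libraries labelled Bmal1 KO, against 2449.7, 3667 and 3419 in WT, with the libraries labelled Bmal1 KO now above.

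Of the alpha genes, 6 were tested, 5 were higher and 1 did not pass, against 36.2% higher over all tested genes. Of these 6, 4 passed the filter through the libraries labelled Bmal1 KO only. Pcdhac2, the last variable exon of the cluster, carried most of the alpha counts. It had 375, 317 and 272 in the libraries labelled Bmal1 KO, against 49.5, 46.4 and 62.6 in WT. The difference was 6.07-fold with no overlap (log2 fold change 2.58, SE 0.19, limma adjusted p = 1.32e-05). Pcdha10 had 33.6, 25.2 and 29.7 in the libraries labelled Bmal1 KO, against 2.75, 0.829 and 7.37 in WT. It was 8.08-fold higher with no overlap (log2 fold change 2.97, SE 0.57, limma adjusted p = 0.00212) and 16.5-fold higher without WT replicate 3. Pcdha9 had 50 reads in the libraries labelled Bmal1 KO and 5 in WT, a ratio of 12.6 with an exact 95% counting interval of 5.04 to 40.4. The 8 alpha genes that were not tested had 5 to 28 reads over the libraries labelled Bmal1 KO and 0 to 10 over WT. Pcdha4, with 6 reads in the libraries labelled Bmal1 KO, was the only member of all 90 with 0 reads in WT.

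Beta genes, which are single exons without a shared constant part, were mostly lower or not past the threshold. Of 19 tested, 9 were lower, 2 were higher and 8 did not pass, against 34.9% lower and 36.2% higher over all tested genes. Pcdhb17 had 268, 272 and 312 in the libraries labelled Bmal1 KO, against 743, 820.1 and 837 in WT. It was 2.82-fold lower with no overlap (log2 fold change -1.49, SE 0.10, limma adjusted p = 9.40e-06). Pcdhb22 had 294, 301 and 295 in the libraries labelled Bmal1 KO, against 406, 412 and 382 in WT, a smaller difference of 1.35-fold (log2 fold change -0.43, SE 0.10, limma adjusted p = 0.00467). The other lower genes were Pcdhb5, Pcdhb9, Pcdhb15, Pcdhb18, Pcdhb19, Pcdhb20 and Pcdhb21, with log2 fold changes from -2.36 for Pcdhb21 to -0.89 for Pcdhb19. Among the last 8 genes of the cluster, Pcdhb15 to Pcdhb22, 7 were lower and Pcdhb16 did not pass (log2 fold change -0.08). Pcdhb2 and Pcdhb11 were higher, at 1.27 and 1.15 on the log2 scale, and Pcdhb11 lost its call without replicate 2 of the libraries labelled Bmal1 KO (limma adjusted p = 0.0631). The lowest WT library was replicate 1 for 14 of the 19 tested beta genes.

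Gamma genes went in both directions. All 21 were tested, with 10 higher, 4 lower and 7 not past the threshold, against 36.2% higher and 34.9% lower over all tested genes. Among these 21, 2 genes (Pcdhga8 and Pcdhgb7) passed the filter through the libraries labelled Bmal1 KO only. Pcdhgc3, the clustered protocadherin with the highest counts, had 7637, 8314 and 7610.3 in the libraries labelled Bmal1 KO, against 10892, 17644 and 15380.4 in WT. It was 1.86-fold lower with no overlap (log2 fold change -0.87, SE 0.16, limma adjusted p = 0.00168), and its exons overlap an opposite-strand transcript over 1559 bases. Pcdhgc5 had 660.3, 779 and 672 in the libraries labelled Bmal1 KO and 613, 922 and 813 in the WT libraries, which overlapped (log2 fold change -0.14, limma adjusted p = 0.445; 95% interval -0.49 to 0.22), and it passed only without WT replicate 1 (log2 fold change -0.30, limma adjusted p = 0.0319). Against this, Pcdhgb7 was 26.2-fold higher with no overlap, at 331, 358 and 332 in the libraries labelled Bmal1 KO, against 4.59, 13.3 and 21.2 in WT (log2 fold change 4.82, SE 0.46, limma adjusted p = 4.97e-05). Pcdhgb4 was 7.31-fold higher (log2 fold change 2.85, limma adjusted p = 2.42e-06). Pcdhgb1 and Pcdhga12 were 7.24-fold and 4.33-fold lower, at log2 fold changes of -3.04 and -2.09. These 4 genes were chosen after their values were seen. Exons of Pcdhgb7 and Pcdhga12 overlap opposite-strand transcripts over 771 and 422 bases, and those of Pcdhgb4 and Pcdhgb1 over 0. For Pcdhga10, given below, that overlap is 2613 bases. WT replicate 1 was the lowest WT library for 18 of the 21.

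Some gamma calls were lost when any 1 of several libraries was left out. Pcdhga7 was higher by 0.45 on the log2 scale, but its limma adjusted p without replicate 1 or 2 of the libraries labelled Bmal1 KO was 0.0863 and 0.103. Leaving out WT replicate 1 or 3 gave 0.0768 and 0.0842 for the same gene. Pcdhga10, higher by 0.54 on the log2 scale, passed narrowly with all libraries (limma adjusted p = 0.0481). Leaving out replicate 1, 2 or 3 of the libraries labelled Bmal1 KO took it to 0.0645, 0.124 and 0.117. Leaving out WT replicate 1 or 3 took it to 0.102 and 0.0901. With TMM scaling neither Pcdhga7 nor Pcdhga10 passed (limma adjusted p = 0.0579 and 0.0756). Pcdhga10 also missed without a filter (limma adjusted p = 0.0537) and with edgeR (edgeR adjusted p = 0.0759). Pcdhga9, lower at -0.92 on the log2 scale, reached 0.057 without replicate 1 of the libraries labelled Bmal1 KO. Without WT replicate 2 or 3 the adjusted p of Pcdhga9 was 0.0565 and 0.0789. The remaining called gamma genes kept their calls when any 1 library was left out.

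**Figure D3:**
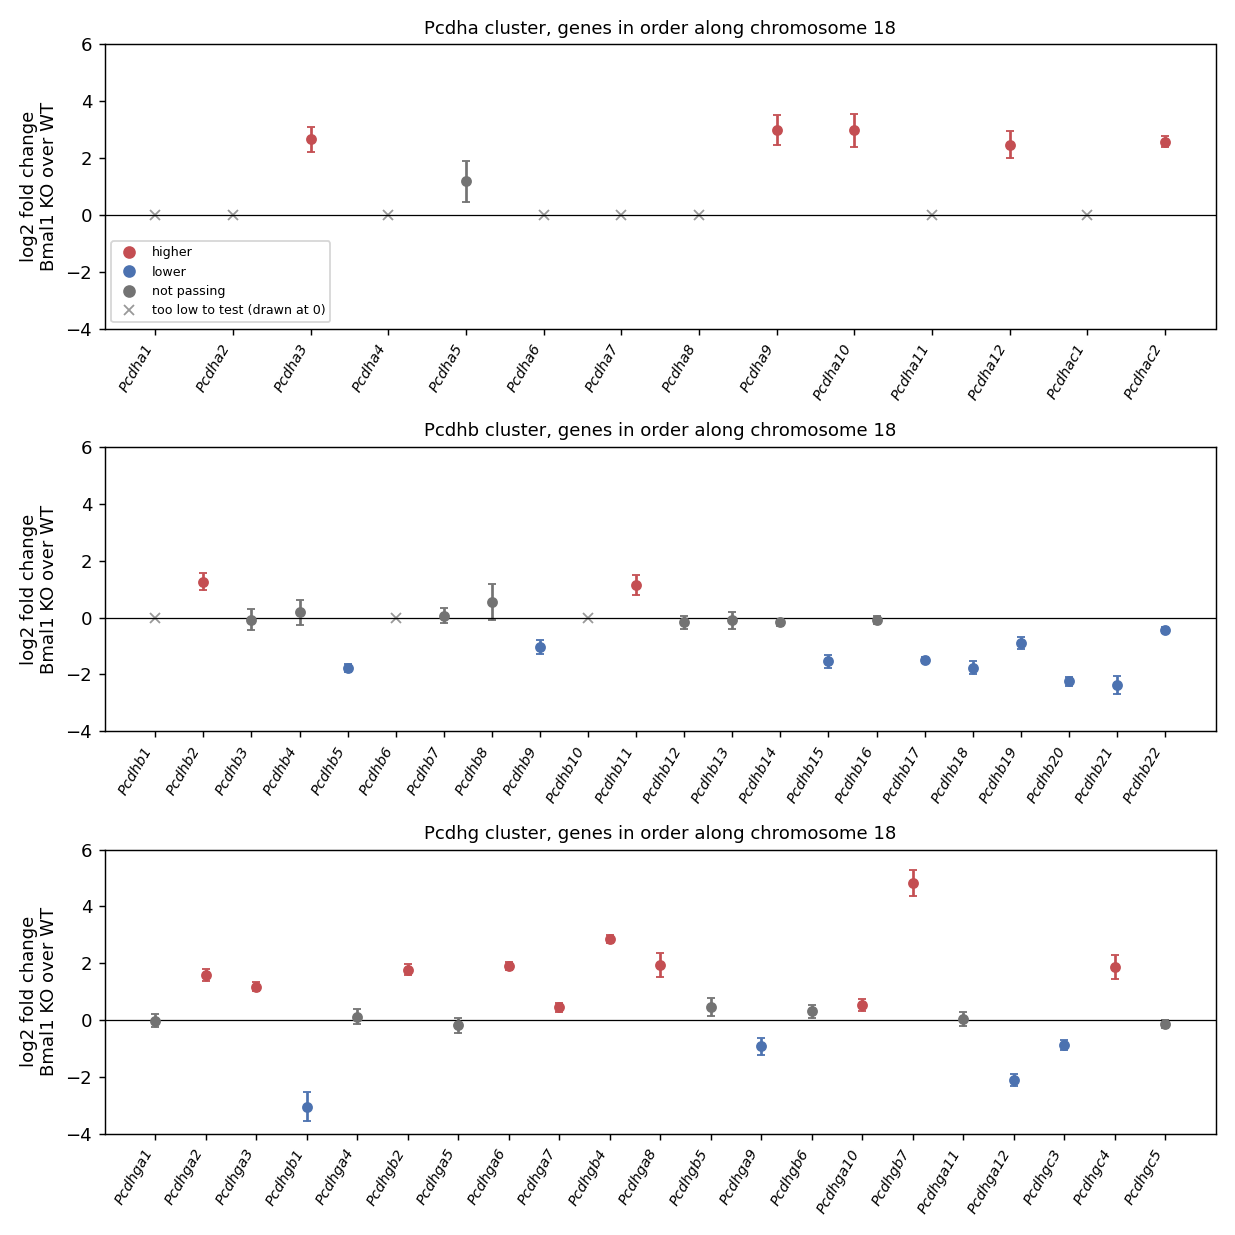
Log2 fold change of each tested clustered protocadherin (libraries labelled Bmal1 KO minus WT, with bars of 1 SE) in the order of the genes along each cluster; crosses drawn at 0 mark genes too low to test. The tested alpha genes lie above 0, the beta genes from Pcdhb15 to Pcdhb22 lie below 0, and the gamma genes lie on both sides, with Pcdhgb7 highest at 4.82 and Pcdhgb1 lowest at -3.04.

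Genes whose proteins bind or act on cadherins at junctions were examined as a separate list. Of 24 catenins, desmosomal plaque proteins, nectins and other partners, 23 were tested, 9 were higher, 7 were lower and 7 missed the threshold. All tested genes were higher in 36.2% and lower in 34.9% of cases. Among the 23 partners, Pkp1 alone passed the filter through the libraries labelled Bmal1 KO only. The median log2 fold change of the list was 0.01, against -0.01 for all tested genes. Ctnnb1, which encodes beta-catenin, was lower, at 23478, 23681 and 23490.1 in the libraries labelled Bmal1 KO, against 32658, 32507 and 31626 in WT (log2 fold change -0.45, SE 0.06, limma adjusted p = 0.000403). Jup, which encodes plakoglobin, was also lower (log2 fold change -0.41, limma adjusted p = 0.00947). Ctnna1, which encodes alpha-catenin, was 1.29-fold higher (log2 fold change 0.37, limma adjusted p = 0.00662). Ctnnd1, which encodes p120 catenin, did not pass (log2 fold change 0.06, limma adjusted p = 0.536; 95% interval -0.14 to 0.26).

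Nectins, immunoglobulin-like adhesion proteins found at the same junctions, went in both directions. Nectin3 had 2879.8, 2842 and 2865 in the libraries labelled Bmal1 KO, against 462, 438 and 479.8 in WT. It was 6.22-fold higher (log2 fold change 2.64, SE 0.07, limma adjusted p = 6.33e-08). Nectin2 had 1735, 1827 and 1843 in the libraries labelled Bmal1 KO, against 8379, 8350.5 and 7608 in WT, 4.503-fold lower (log2 fold change -2.17, SE 0.06, limma adjusted p = 1.23e-07). The groups were far apart for both genes. Nectin1 was 2.97-fold higher (log2 fold change 1.57, limma adjusted p = 4.32e-07). Nectin4, at low counts, was lower (log2 fold change -1.29, limma adjusted p = 0.0143), and lost its call without WT replicate 3 (limma adjusted p = 0.0506). Pkp2, which encodes a plakophilin of desmosomes, was lower, at 214, 265 and 251 in the libraries labelled Bmal1 KO, against 748, 739.7 and 762 in WT (log2 fold change -1.62, SE 0.11, limma adjusted p = 7.88e-06). The largest log2 fold change of the list was that of another plakophilin gene, Pkp1, with 158, 145 and 159.9 in the libraries labelled Bmal1 KO, against 23.8, 3.32 and 1.84 in WT (log2 fold change 4.53, SE 0.73, limma adjusted p = 0.000812). WT replicate 1 held most of the WT counts of Pkp1, whose fold was 15.96 with all libraries and 59.8 without that library. Nectin4 and Pkp1 were chosen after their values were seen.

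Other genes of the cadherin superfamily include the desmosomal cadherins, the calsyntenins and the giant Fat, Dachsous and Celsr proteins. Of 26 in the list, 18 were tested. Of these, 13 were higher, 1 was lower and 4 did not pass, against 36.2% higher and 34.9% lower over all tested genes. The list had a median log2 fold change of 1.60, against -0.01 for all tested genes. That count and median lean on the filter, because 6 of the 18 passed it through the libraries labelled Bmal1 KO only and 1 through WT libraries only. Of the 11 at 10 or more in all 6 libraries, 8 were higher, 1 was lower and 2 did not pass. All genes at that level were higher in 33.0% and lower in 37.2% of cases. Dchs1, which binds Fat4 between cells, was the lower one, at 465, 523 and 379 in the libraries labelled Bmal1 KO, against 1588, 2306 and 2107 in WT (log2 fold change -2.13, SE 0.16, limma adjusted p = 1.65e-05). Clstn3, a calsyntenin of synapses, was 3.06-fold higher (log2 fold change 1.65, limma adjusted p = 0.000179). Celsr2, of planar cell polarity, was 1.99-fold higher (log2 fold change 1.01, limma adjusted p = 0.000448). Ret, a receptor kinase with cadherin-like domains, was 5.66-fold higher (log2 fold change 2.52, limma adjusted p = 0.000536). Dsg1b, Dsg1c and Dsg4, desmogleins of skin, had no reads in any library.

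Transcription factors that act on cadherin genes were a further list, which also held the splicing regulators Esrp1 and Esrp2. Of its 16 genes 15 were tested, with 6 higher, 3 lower and 6 not past the threshold. Over all tested genes 36.2% were higher and 34.9% lower, and the median log2 fold change was 0.28 for this list and -0.01 for all tested genes. Of the 15, 3 passed the filter through the libraries labelled Bmal1 KO only. Snai1 and Zeb1, known to repress E-cadherin, were both higher. Snai1 had 3288, 3101 and 3839 in the libraries labelled Bmal1 KO, against 1029, 1265 and 1062 in WT, 3.05-fold higher (log2 fold change 1.61, SE 0.11, limma adjusted p = 8.01e-06). Zeb1 was 1.82-fold higher (log2 fold change 0.87, limma adjusted p = 9.02e-05), and Twist1 was 1.26-fold higher (log2 fold change 0.33, limma adjusted p = 0.00282). Snai2 and Zeb2 did not pass, with log2 fold changes of 0.00 (95% interval -0.16 to 0.17) and 0.15 (95% interval -0.04 to 0.34). Tcf3 and Tcf4, which encode E-proteins that bind the same letters, were lower, at log2 fold changes of -0.99 and -0.43 (limma adjusted p = 5.21e-06 and 0.000317). Cdh1 itself did not pass, as given above.

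**Figure D4:**
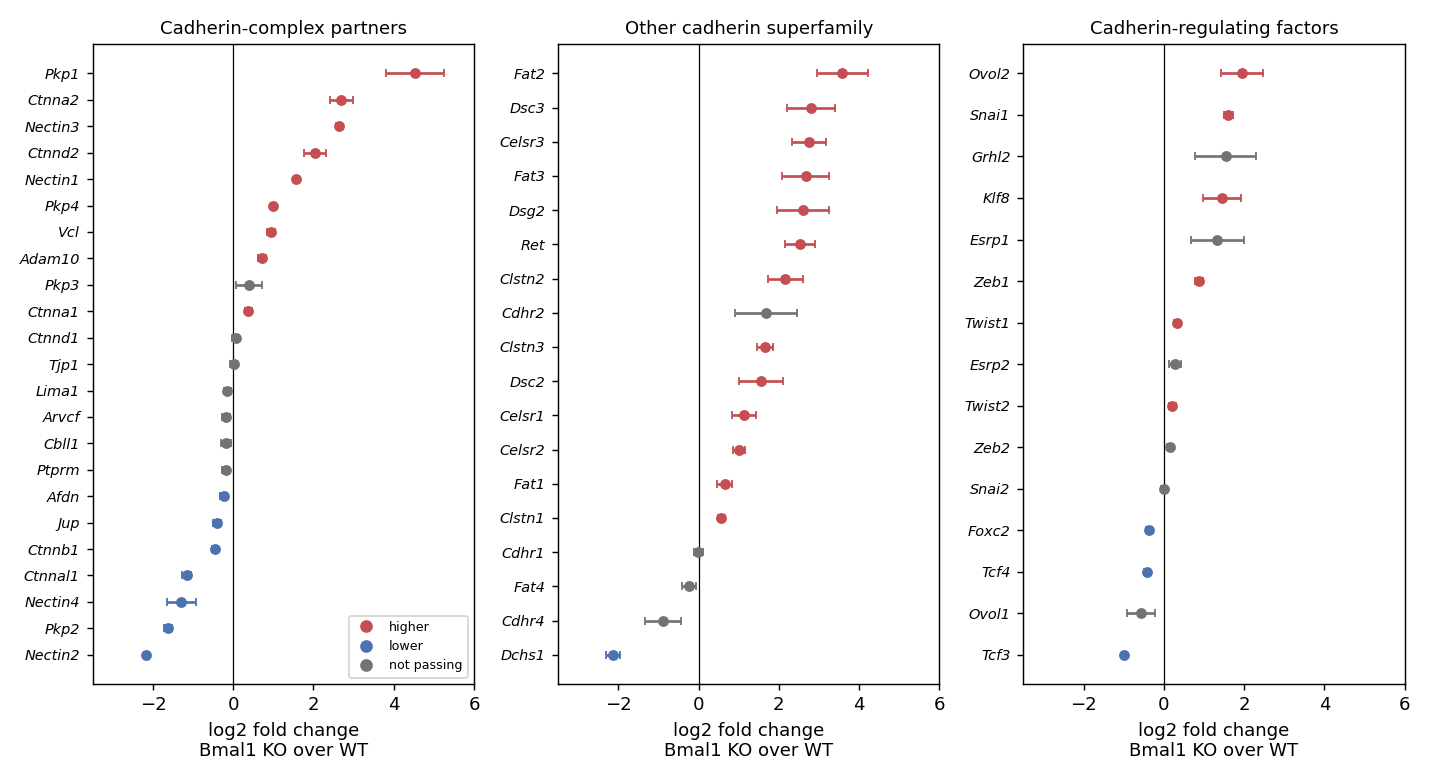
Log2 fold change (libraries labelled Bmal1 KO minus WT, with bars of 1 SE) of every tested junction partner, other superfamily gene and cadherin-regulating factor, from highest to lowest. Nectin3, Nectin1 and Snai1 lie well above 0, Nectin2, Dchs1 and Pkp2 well below it, and Ctnnd1, Snai2 and Zeb2 are drawn as not passing.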

How the data were processed

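Polyadenylated RNA of 6 libraries was sequenced with an Illumina stranded mRNA kit from 1.0 µg of total RNA, per the labels' protocols. The submitters' processing notes name Trimmomatic, HISAT2, featureCounts and mm10, and give no versions. The authors' deposited table holds a non-negative signal per gene and library: read counts normalized by a factor per library. Divided by the value of 1 read in each library, 100% of values were whole within 0.01. Sample titles gave each library its group and replicate number.

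The main test was limma 3.58.1 (R 4.3.3, eBayes with trend) on log2(value + 1) with group as the only term. It covered the 16086 genes with at least 10 normalized counts in at least 3 libraries, with Benjamini-Hochberg adjustment over all of them and a threshold of 0.05. Log2 fold changes on this scale understate changes of low genes, and folds are ratios of mean normalized counts. edgeR 4.0.16 on the recovered reads called 11479 genes (71.4%), and DESeq2 1.42.0 was another alternative. Counting intervals are exact, at 95%, and cover counting error only. The scripts were tested on simulated data.

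Members and lists were chosen with earlier results of these data known. Values per library are given for stand-alone members with a mean of at least 100, the 5 largest rises and up to 5 largest falls past the threshold (4 stand-alone members fell), and the 2 most abundant genes of each cluster. From the other lists, up to 4 genes by smallest adjusted p are named, with the main catenins and repressors. Replicates of each group differed beyond sampling noise, so none was a duplicate. Positions come from RefSeq (GRCm38.p6) and exon lengths from GENCODE, since the annotation used for counting is not given in the sources used here.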

Additional observations from a re-analysis of the deposited data

How the results depend on the processing

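The 15 alternatives left out each library in turn, changed the scaling (TMM, upper quartile), the pseudocount (0.5 or 5) or the filter, added the replicate number as a block, or used edgeR or DESeq2. No called member changed sign under any of them. Members called numbered 55 with all libraries and 50 to 55 when 1 library was left out. They numbered 53 with TMM, 56 with upper-quartile scaling, 55 and 56 with pseudocounts of 0.5 and 5, 54 with edgeR and 55 with DESeq2. Without a filter 59 of 90 were called, and with a filter of 1 CPM in 3 libraries 44 of 59, of which 27 were higher and 17 lower. Over all genes the median log2 fold change was -0.01 with the deposited scaling, -0.07 with TMM and 0.04 with upper-quartile scaling. The log2 fold change of Cdh24, which did not pass, was -0.09 with all libraries and -0.33 to 0.31 when 1 library was left out, the last without replicate 3 of the libraries labelled Bmal1 KO. With DESeq2 it was 0.014. Lower genes among the other cadherin superfamily numbered 1 to 2 when 1 library was left out. In all, 6 called members (Cdh12, Cdh20, Pcdhb11, Pcdhga7, Pcdhga9 and Pcdhga10) lost their call under some alternative and 5 (Cdh1, Pcdh7, Pcdh20, Pcdha5 and Pcdhgc5) gained one. The fold of Pcdha9 was 12.6 with all libraries and 21.6 without WT replicate 3. The cause of these changes was not tested.

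With the replicate number as a block, 55 members were called, all of them called without it. Over all tested genes, deviations of same-numbered libraries correlated at -0.00447, 0.0258 and 0.0839. No library labelled Bmal1 KO correlated best with the WT library of its own number. A link within fewer genes was not tested. In the other lists, Cdhr2, Grhl2 and Esrp1 gained a call with the block (limma adjusted p = 0.0484, 0.0166 and 0.00194). Without the block their limma adjusted p was 0.0798, 0.100 and 0.0985. Depth limits the 14 members that were not tested and the Pcdha genes most, where a group held few reads.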

Other observations

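Members were not spread evenly over chromosomes: 60 of the 90 lie on chromosome 18. The 5 on chromosome 15 (Cdh6, Cdh9, Cdh10, Cdh12 and Cdh18) were all higher in the libraries labelled Bmal1 KO and all passed the filter through those libraries only. Of the other 638 tested genes on chromosome 15, 24.3% were higher, with a median log2 fold change of -0.40. On chromosome 14, 3 of 5 members were higher, against 35.1% of the other tested genes there. On chromosome 8, 3 of 5 tested members were higher and 1 was lower, against 31.1% higher among the other tested genes.

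Members took 0.143% to 0.151% of all reads in the libraries labelled Bmal1 KO and 0.0961% to 0.131% in WT. Of 6 fibroblast markers, 4 were lower and 2 higher, against 34.9% and 36.2% of all tested genes. They summed to 16037 to 16939 in the libraries labelled Bmal1 KO and 38454 to 40476 in WT. Dcn had the largest difference in counts, with a mean of 2403 in the libraries labelled Bmal1 KO and 26320 in WT. The 2 higher ones, Pdgfra and Dpt, averaged 12442 and 1227 in the libraries labelled Bmal1 KO, against 10681 and 586 in WT. Macrophage markers were higher in 5 of 6 cases and lower in 1, against 36.2% and 34.9% of all tested genes. Their sums were 1809 to 2053 in the libraries labelled Bmal1 KO and 829 to 1035 in WT. Of these 6 macrophage markers, 3 passed the filter through the libraries labelled Bmal1 KO only. Of the 3 at 10 or more in all 6 libraries, 2 were higher and 1 was lower.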
